A study of Mus musculus with 21 samples.

Results

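Myb, Myc, Sox4, Lmo2, Msi2, Bcat1, Cd34 and Angpt1 are 8 genes with known roles in the self-renewal of blood stem cells and leukaemia cells. They were taken by symbol from each of 3 expression tables, which together list 16782 gene symbols. All 8 were found in the tables of Kdm5b knockdown and Kdm5b overexpression, and 6 in the table of the PRC2 inhibitors, where Cd34 and Angpt1 were not analysed here. RNA was sequenced from 21 libraries in 8 groups of established mouse acute myeloid leukaemia lines, each transformed by a flag-tagged fusion gene and grown with mouse stem cell factor from the medium of a secreting CHO line. Cells with the NUP98-NSD1 fusion received UNC1999 or JQEZ5, 2 inhibitors of the histone methyltransferase complex PRC2, or the solvent DMSO, for 4 days at a labelled 3 µM, with 3 libraries in each group. Further NUP98-NSD1 cells carried the pLKO.1-puro lentivirus with an shRNA against Kdm5b (shKdm5b) or without one (shEV) and were selected with puromycin, again with 3 libraries in each group. Cells with the MLL-AF9 fusion carried the MSCV-neo retrovirus with wild-type Kdm5b (WT), with the demethylase-dead mutant H499A, or empty (EV), with 2 libraries in each group. The labels name 1 line for each fusion, do not say whether a line is 1 clone or whether replicates came from separate cultures, and p-values may therefore reflect only the technical spread between these libraries.

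Self-renewal in acute myeloid leukaemia rests on a small set of transcription factors that keep cells dividing as immature progenitors. MYB and MYC drive proliferation and hold back maturation, SOX4 is a high mobility group factor that promotes myeloid leukaemia in mice, and LMO2 bridges DNA-binding proteins in blood stem cell complexes. MSI2 binds RNA and sustains stem cells, BCAT1 passes nitrogen between branched-chain amino acids and glutamate, CD34 is a surface sialomucin of progenitors, and ANGPT1 is the secreted ligand of the TIE2 receptor of stem cells and endothelium. PRC2 places methyl groups on lysine 27 of histone H3, a mark of silent genes, and KDM5B removes methyl groups from lysine 4 of histone H3, a mark of active promoters.

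On the GRCm38 assembly Myb lies at chr10:21124935-21160984 on the minus strand, Myc at chr15:61985391-61990374 on the plus strand, Sox4 at chr13:28948919-28953713 on the minus strand and Lmo2 at chr2:103957986-103981878 on the plus strand. Msi2 lies at chr11:88339382-88718513, Bcat1 at chr6:144993835-145076184 and Angpt1 at chr15:42424723-42676977, all on the minus strand, and Cd34 at chr1:194938819-194961279 on the plus strand. All are protein-coding in GENCODE M21. Methylated lysine 4 of histone H3 is typical of promoters rich in CpG dinucleotides, so the promoters of the 3 members with RefSeq entries whose levels differed most among the MLL-AF9 groups are shown, each 300 bases long from 250 before the start of transcription (RefSeq, GRCm38.p6). CpG dinucleotides are in capitals.
Sox4, chr13:28953650-28953949, minus strand: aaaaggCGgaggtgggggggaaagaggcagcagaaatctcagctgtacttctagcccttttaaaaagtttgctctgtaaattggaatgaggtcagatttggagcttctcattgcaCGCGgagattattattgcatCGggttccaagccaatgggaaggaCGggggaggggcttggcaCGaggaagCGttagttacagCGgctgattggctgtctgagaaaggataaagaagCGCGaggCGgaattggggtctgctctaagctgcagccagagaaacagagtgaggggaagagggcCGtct
Msi2, chr11:88718228-88718527, minus strand: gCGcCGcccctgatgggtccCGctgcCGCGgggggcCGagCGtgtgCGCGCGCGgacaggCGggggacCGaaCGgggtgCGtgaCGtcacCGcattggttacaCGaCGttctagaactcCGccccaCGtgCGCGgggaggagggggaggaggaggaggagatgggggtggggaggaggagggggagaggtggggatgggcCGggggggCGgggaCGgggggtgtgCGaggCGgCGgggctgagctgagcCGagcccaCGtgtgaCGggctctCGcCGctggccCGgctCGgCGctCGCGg
Cd34, chr1:194938571-194938870, plus strand: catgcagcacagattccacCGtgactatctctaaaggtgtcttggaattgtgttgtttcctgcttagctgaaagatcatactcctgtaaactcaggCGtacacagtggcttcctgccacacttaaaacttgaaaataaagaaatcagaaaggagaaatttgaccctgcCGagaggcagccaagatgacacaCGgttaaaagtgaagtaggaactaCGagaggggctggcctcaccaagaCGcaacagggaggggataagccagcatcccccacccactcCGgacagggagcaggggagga
The Sox4 promoter held 12 CpG dinucleotides, that of Msi2 39 and that of Cd34 7, against a median of 7 over 32841 promoters of the same length. Msi2 thus held more than 95.6% of those promoters did, Sox4 more than 60.4% did and Cd34 more than 47.9% did. The promoter of Myb held 40 and those listed for Bcat1 6 and 16. The E-box CACGTG, the letters that MYC with its partner MAX prefers and which read the same on both strands, was found in 7.15% of the 32841 promoters. Among the members with a promoter entry, Msi2 held it, at positions -126 and 5 relative to the start of the entry shown. Myb, Sox4, Cd34 and Bcat1 did not hold these letters in this window. The other overlapping Msi2 entries held 38 and 37 CpG dinucleotides. From their starts the E-boxes lay at -136 and -5 and at -174 and -43.

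Levels below are normalised read counts recovered from the deposited values. Ratios are of mean normalised counts, and log2 differences with their standard errors are on the authors' variance-stabilised scale, which compresses differences between low counts. A call is an adjusted p under 0.05 by limma over all genes tested in a table. Library depth was 12.8 to 18.9 M reads in the inhibitor experiment, 21.3 to 34.8 M in the knockdown and 17.3 to 19.97 M in the overexpression. Kdm5b itself had 34.1, 28.8 and 23.2 normalised counts in shKdm5b libraries, against 61.6, 94.8 and 67.0 in shEV libraries (0.385 times). In MLL-AF9 cells it had 1409.6 and 1416 in WT, 309 and 279 in H499A and 114 and 128 in EV libraries, so the wild-type and mutant groups differed in the amount of Kdm5b RNA as well as in the mutation. Replicate 1 of shKdm5b stood apart from the other libraries of its group, with a chi-square of 17.3 and 16.0 for each degree of freedom against them, where those 2 differed from each other by 6.41. The same measure was 1.53 to 9.52 in every other pair of libraries of 1 group, above the sampling noise of duplicated libraries.

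The labelled myeloid identity was checked with 10 markers of myeloid progenitors, among them Mpo and Elane, all of which were listed in all 3 tables. Their summed level was 111935 to 114625 normalised counts in UNC1999, 145390 to 151993 in JQEZ5 and 138564 to 144246 in DMSO libraries, 367489 to 435324 in shKdm5b and 397234 to 406652 in shEV libraries, and 157490 to 160745 in WT, 124614 to 125698 in H499A and 121418 to 125589 in EV libraries. Mpo alone averaged 45754 in UNC1999, 70534 in JQEZ5 and 68391 in DMSO cells, and 111560 in WT, 81364 in H499A and 82280 in EV cells. Of the 10 progenitor markers, 2 were called higher and 5 lower with UNC1999, and 3 higher and 2 lower with JQEZ5. With shKdm5b 3 were higher and 1 lower, in WT 5 higher and 5 lower, and in H499A 4 higher and 3 lower, each against its own control. Markers of monocytes and macrophages moved with every comparison. Their summed level was 277882 to 291502 normalised counts in UNC1999, 192576 to 194392 in JQEZ5 and 99136 to 101043 in DMSO libraries. It was 35346 to 40459 in shKdm5b and 42862 to 44004 in shEV libraries, and 52072 to 53912 in WT, 34228 to 34338 in H499A and 19563 to 20248 in EV libraries. Of all tested genes, 23.9% were called higher and 24.0% lower with UNC1999, and 13.1% and 10.5% with JQEZ5, each against DMSO. Against their own controls, these shares were 15.0% and 17.4% with shKdm5b, 29.8% and 32.4% in WT, and 22.7% and 26.9% in H499A. The marker counts above and below stand beside these shares. Of the 10 monocyte and macrophage markers, 9 were higher with UNC1999 and 7 higher and 2 lower with JQEZ5, each against DMSO. With shKdm5b 3 were higher and 7 lower, and of the 7 tested in MLL-AF9 cells 6 were higher and 1 lower in WT and 6 higher in H499A, each against its own control. None of the monocyte or progenitor markers analysed was at 0 in all libraries of a group. In bulk RNA, fewer cells of a type and less RNA per cell cannot be told apart. Markers of neutrophils, of which 5 or 6 of 8 were analysed, moved too. Their summed level was 16367 to 16736 normalised counts in UNC1999, 10249 to 10446 in JQEZ5 and 9062 to 9217 in DMSO libraries, 6045 to 6559 in shKdm5b and 4174 to 4471 in shEV libraries, and 2090.3 to 2163 in WT, 1946 to 1964 in H499A and 729 to 806 in EV libraries. Of 5 tested with the inhibitors 4 were higher and 1 lower with UNC1999 and 3 higher and 1 lower with JQEZ5, all 3 tested were higher with shKdm5b, and both tested were higher in WT and in H499A than in EV, while S100a8, S100a9 and Ngp were at 0 in both WT libraries. Dendritic cell markers, 3 of 5, summed to 676 to 699 normalised counts in WT, 829 to 873 in H499A and 1627 to 1674 in EV libraries. Most of each sum was Flt3, at means of 479.6, 727 and 1393, a gene also of progenitors and described again below. B cell markers, 2 of 6 in NUP98-NSD1 cells, summed to 69.5 to 102 in UNC1999, 68.0 to 80.5 in JQEZ5 and 192 to 212 in DMSO libraries, and to 641 to 799 in shKdm5b and 305 to 379 in shEV libraries, and 1 marker in MLL-AF9 cells stood at 224 to 239.8 in WT, 666 to 678 in H499A and 317 to 329 in EV libraries. Endothelial and stromal markers, 2 of 6 in MLL-AF9 cells, summed to 5673 to 5764 in WT, 4593 to 4651 in H499A and 3796 to 3936 in EV libraries, and 3 of 6 with the inhibitors to 842 to 874 in UNC1999, 950.2 to 1058 in JQEZ5 and 1248 to 1369.6 in DMSO libraries. Lists for erythroid cells, megakaryocytes and T and NK cells summed to at most 162 in any library. The part of these markers in the results below was not tested. Pax5, Cd3e, Cdh5 and Col1a1, defining markers of other lineages, were not analysed here.

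**Figure D1:**
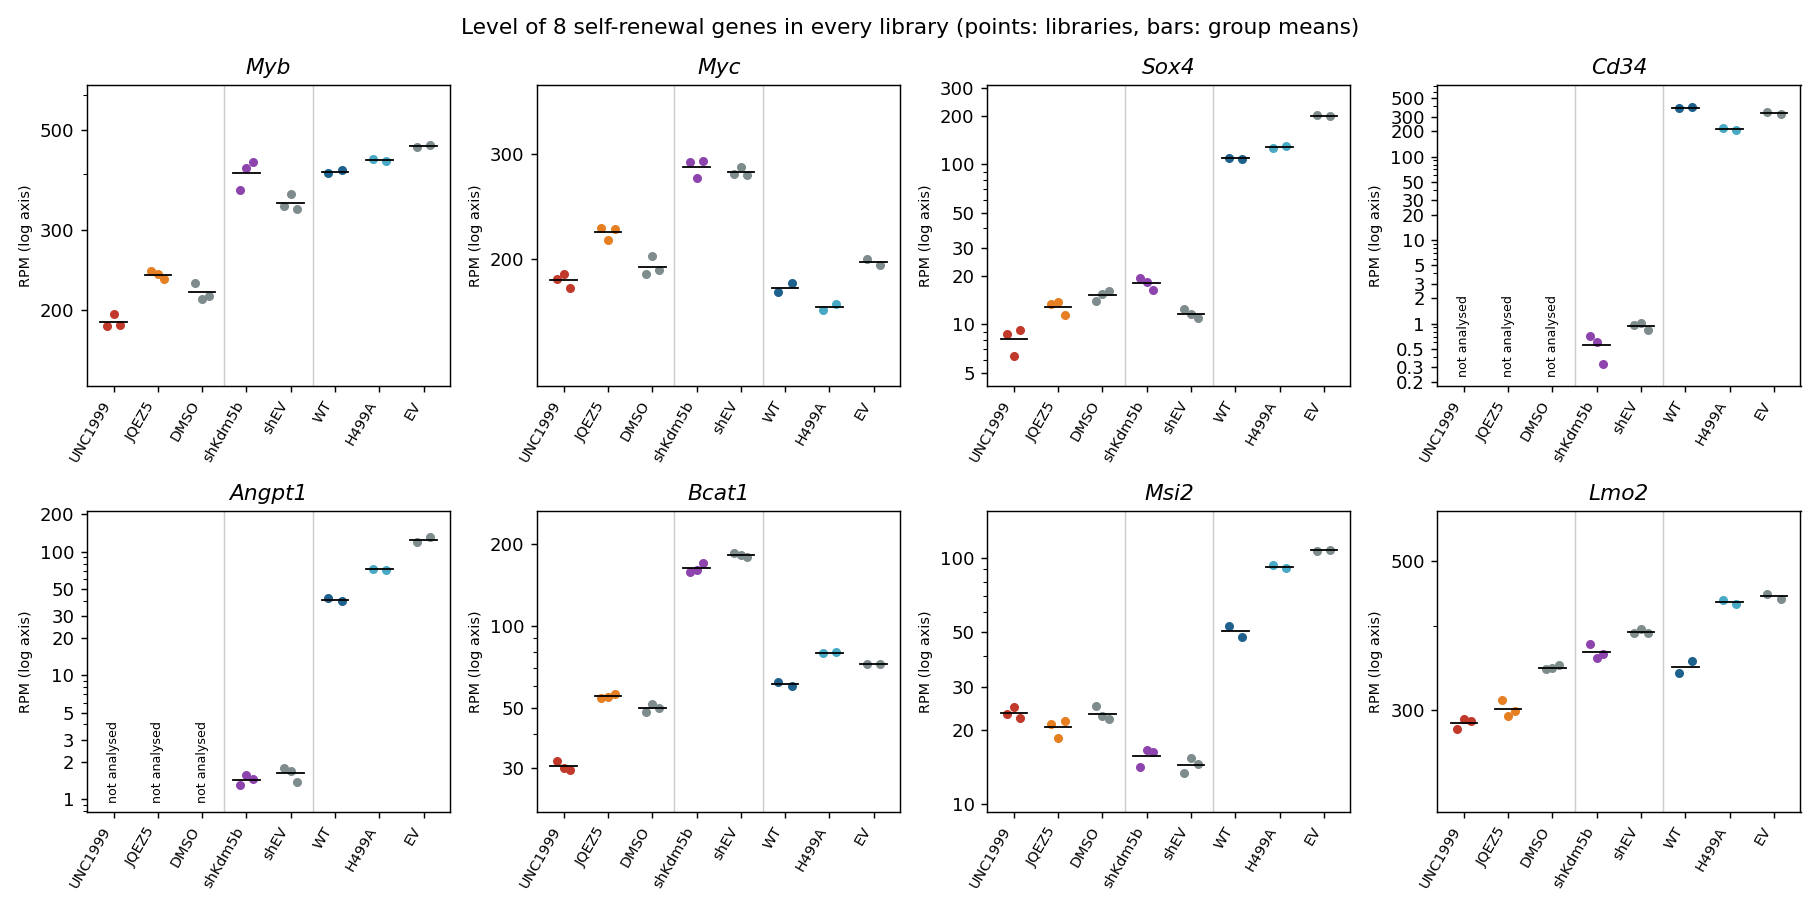
RPM (reads scaled to the library total, log axis) of the 8 genes in each library of the 8 groups, with points for libraries, bars for group means and grey lines between the 3 experiments. Cd34 and Angpt1 lie at 39.6 RPM or more in every MLL-AF9 library and at 1.76 or less in every shKdm5b and shEV library, and Sox4 is lowest in the UNC1999 libraries.

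Overexpression of Kdm5b in MLL-AF9 cells asked what added demethylase does, and the mutant what is seen without its catalytic activity. With wild-type Kdm5b, 7 of the 8 self-renewal genes were lower than in EV cells and Cd34 was higher. Angpt1, Msi2 and Sox4 differed most, to 0.320, 0.460 and 0.529 times the EV level. With H499A 6 of the 8 were lower, Cd34 among them, Bcat1 was slightly higher and Lmo2 was not called. Of 9458 tested genes 62.2% were called in WT against EV, with 29.8% higher and 32.4% lower, and 49.6% in H499A against EV, with 22.7% higher and 26.9% lower, so calls were common among all genes. The median log2 difference of the members was -0.28 in WT and -0.20 in H499A, and that of all tested genes -0.01 in both comparisons. The libraries of all 8 members did not overlap between WT and EV or between H499A and EV, which held for 79.4% and 75.0% of tested genes.

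Sox4 had 2026 and 1975 normalised counts in WT libraries, 2359 and 2401 in H499A libraries and 3794 and 3765 in EV libraries. Both Kdm5b groups lay below EV without overlap, and WT lay below H499A. The log2 difference was -0.77 ± 0.03 for WT against EV and -0.57 ± 0.03 for H499A against EV (limma, adjusted p 1.17e-18 and 1.29e-15, n = 2 in each group). Wild type against mutant, Sox4 was 0.841 times as high (-0.20 ± 0.03, limma adjusted p 5.54e-07). Among all 9458 tested genes the log2 difference of Sox4 was the 50th lowest in WT against EV and the 55th lowest in H499A against EV.

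Myb, the proto-oncogene on which acute myeloid leukaemias commonly depend, moved less. It had 7392 and 7451 normalised counts in WT, 8021 and 7926 in H499A and 8578 and 8660.5 in EV libraries. The 3 groups did not overlap, and Myb was 13.9% lower in WT and 7.49% lower in H499A than in EV (limma, log2 -0.20 ± 0.02 and -0.11 ± 0.02, adjusted p 2.46e-08 and 0.000408). Myc had 3243 and 3339 normalised counts in WT, 3053 and 3123 in H499A and 3745 and 3658 in EV libraries. Its order differed from that of Myb, with H499A lowest. Myc fell to 0.889 times EV in WT and to 0.834 times in H499A (limma, adjusted p 3.15e-05 and 7.03e-08), and was 1.07 times as high in WT as in H499A (limma, log2 0.08 ± 0.03, adjusted p 0.0145). That last call was lost without H499A replicate 1 or WT replicate 2, at log2 0.06 in each case (limma, adjusted p 0.139 and 0.0875).

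Lmo2, the bridging factor, had 6256 and 6469 normalised counts in WT, 8102 and 7999 in H499A and 8349.9 and 8218 in EV libraries. WT lay well below both other groups, while H499A lay just below EV. Lmo2 fell to 0.768 times EV in WT (limma, log2 -0.35 ± 0.02, adjusted p 1.21e-12), and in H499A against EV the log2 difference of -0.04 ± 0.02, with a 95% interval of -0.09 to 0.01, was not called (adjusted p 0.188). WT against H499A gave 0.790 times (log2 -0.32 ± 0.02, limma adjusted p 2.16e-11). The RNA-binding regulator Msi2 followed the same order with a wider gap. It had 974 and 872 normalised counts in WT, 1725 and 1681 in H499A and 1996 and 2011 in EV libraries. Msi2 fell to 0.460 times EV in WT and to 0.850 times in H499A, and WT stood at 0.542 times H499A (limma, log2 -0.82 ± 0.03, -0.18 ± 0.03 and -0.64 ± 0.03, adjusted p 2.8e-17, 5.13e-05 and 1.22e-14). Its log2 difference in WT against EV was the 40th lowest of 9458 genes.

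Bcat1, the branched-chain aminotransferase, moved in opposite directions in the 2 Kdm5b groups. It had 1146 and 1095 normalised counts in WT, 1469 and 1486 in H499A and 1352 and 1359 in EV libraries. WT lay below EV and H499A above it, without overlap. Bcat1 was 17.4% lower in WT than in EV and 8.97% higher in H499A (limma, log2 -0.20 ± 0.03 and 0.09 ± 0.03, adjusted p 4.83e-06 and 0.0165), and WT stood at 0.758 times H499A (limma, log2 -0.29 ± 0.03, adjusted p 1.52e-08). The H499A call was lost when any one of the EV or H499A libraries was left out (limma, log2 0.09 to 0.10, adjusted p 0.0561 to 0.096), with the difference little changed.

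The progenitor surface protein gene Cd34 was the 1 member higher in WT than in EV. It had 7047 and 7105 normalised counts in WT, 4081 and 3887 in H499A and 6312 and 6102 in EV libraries. WT lay above EV and H499A below it. Cd34 rose to 1.14 times EV in WT and fell to 0.642 times in H499A (limma, log2 0.17 ± 0.03 and -0.58 ± 0.03, adjusted p 2.07e-06 and 3.67e-16), and the direct comparison put WT at 1.78 times H499A (limma, log2 0.75 ± 0.03, adjusted p 1.71e-18). The TIE2 ligand gene Angpt1 had 771 and 722 normalised counts in WT, 1349 and 1323 in H499A and 2223 and 2445 in EV libraries. It was lowest in WT, between in H499A and highest in EV, with no overlap. Angpt1 fell to 0.320 times EV in WT and to 0.572 times in H499A, with WT at 0.559 times H499A (limma, log2 -1.19 ± 0.04, -0.62 ± 0.04 and -0.57 ± 0.04, adjusted p 2.82e-20, 4.67e-14 and 3.43e-13). In WT against EV its log2 difference was the 10th lowest of 9458 tested genes.

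Directly compared, WT and H499A cells differed in all 8 members, 2 of them higher in WT (Cd34 and Myc) and 6 lower, where 54.4% of tested genes were called, 28.2% higher and 26.3% lower. No member overlapped between the 2 groups, nor did 75.8% of tested genes. The lowest ratio was that of Msi2 and the highest that of Cd34. Myb, at 0.931 times, differed least among those lower (limma, log2 -0.10 ± 0.02, adjusted p 0.000896), and its call was lost under quantile normalisation, at log2 -0.04 with an adjusted p of 0.115. With 2 libraries in each group an exact permutation test of a single gene cannot go below p = 0.333, so these calls rest on the variance that limma shares across genes.

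**Figure D2:**
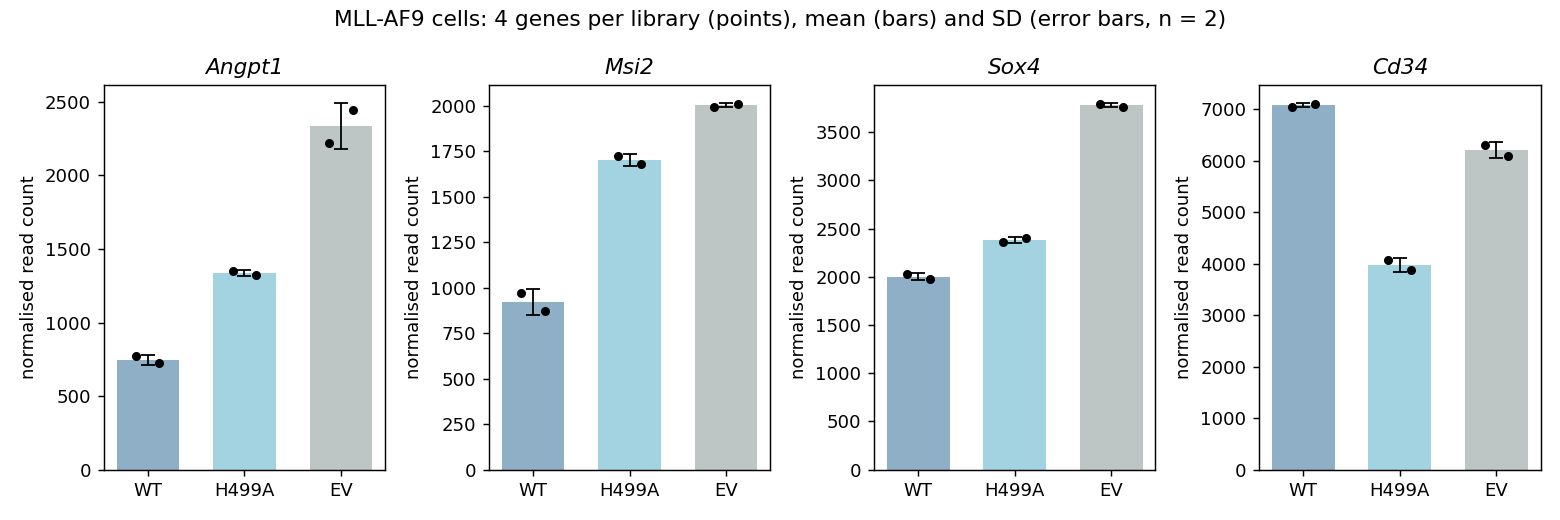
Normalised read counts (bars from 0: means, error bars: SD, points: the 2 libraries of each group) of the 4 members with the largest differences in MLL-AF9 cells. Angpt1, Msi2 and Sox4 are lowest in WT and highest in EV, and Cd34 is highest in WT and lowest in H499A.

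In NUP98-NSD1 cells, inhibition of PRC2 was tested with 2 compounds at 1 labelled dose and time. With UNC1999, Bcat1, Sox4, Lmo2 and Myb fell, and Myc and Msi2 were not called. With JQEZ5 Lmo2 fell, and Myc, Myb and Bcat1 rose by small amounts. The 2 inhibitors therefore gave called differences of opposite sign for Myb and Bcat1. For UNC1999 4 of 6 members were called, all lower, where 47.9% of 10694 tested genes were called (23.9% higher, 24.0% lower). For JQEZ5 4 of 6 were called, 3 higher and 1 lower, where 23.6% of tested genes were (13.1% higher, 10.5% lower). UNC1999 and DMSO libraries did not overlap for 4 members and JQEZ5 and DMSO libraries for 5, where 55.1% and 41.6% of tested genes did not. The comparisons share their DMSO libraries.

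Bcat1 had 509, 476 and 465 normalised counts in UNC1999, 844, 846 and 869 in JQEZ5 and 730.3, 783 and 761 in DMSO libraries. The 3 groups did not overlap, with UNC1999 lowest and JQEZ5 highest. Bcat1 fell to 0.637 times DMSO with UNC1999 (limma, log2 -0.49 ± 0.04, adjusted p 1.01e-07) and was 12.5% higher with JQEZ5 (limma, log2 0.14 ± 0.04, adjusted p 0.0261). The JQEZ5 call was lost without any one JQEZ5 library, or without DMSO replicate 1 or 3, at log2 0.11 to 0.14 (limma, adjusted p 0.0511 to 0.110). UNC1999 against JQEZ5, Bcat1 stood at 0.567 times (limma, log2 -0.62 ± 0.04, adjusted p 2.55e-08), the 7th lowest difference of 10694 genes.

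Sox4 was a gene of low count in these cells, with 138, 100.1 and 146 normalised counts in UNC1999, 207, 214 and 177 in JQEZ5 and 211, 234 and 247 in DMSO libraries. The UNC1999 values came from 150, 98 and 119 reads. UNC1999 lay below both other groups. JQEZ5 and DMSO overlapped. Sox4 fell to 0.555 times DMSO with UNC1999 (limma, log2 -0.44 ± 0.07, adjusted p 6.99e-05). A voom fit of the recovered counts, which does not compress low counts, put that log2 difference at -0.87. With JQEZ5 the log2 difference of -0.12 ± 0.07 was not called, with a 95% interval of -0.27 to 0.03 (adjusted p 0.245), and UNC1999 stood at 0.642 times JQEZ5 (limma, adjusted p 0.00170).

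Myb had 2931, 3080.2 and 2912 normalised counts in UNC1999, 3774, 3710.3 and 3618 in JQEZ5 and 3471, 3190.2 and 3271 in DMSO libraries. DMSO lay between the inhibitors, with no overlap among the 3 groups. Myb was 10.1% lower with UNC1999 and 11.8% higher with JQEZ5 (limma, log2 -0.14 ± 0.04 and 0.15 ± 0.04, adjusted p 0.00330 and 0.00507), and UNC1999 stood at 0.804 times JQEZ5 (log2 -0.29 ± 0.04, limma adjusted p 1.14e-05). Myc had 2958, 2982 and 2817 normalised counts in UNC1999, 3494, 3328 and 3478 in JQEZ5 and 2857, 3068 and 2921 in DMSO libraries. UNC1999 and DMSO overlapped, and JQEZ5 lay above both. Myc rose to 1.16 times DMSO with JQEZ5 (limma, log2 0.21 ± 0.03, adjusted p 0.000435), while UNC1999 against DMSO gave a log2 difference of -0.01 ± 0.03 with a 95% interval of -0.09 to 0.06 (adjusted p 0.778).

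Lmo2 fell with both inhibitors. It had 4464, 4573 and 4537 normalised counts in UNC1999, 4808, 4538 and 4614 in JQEZ5 and 5205, 5228 and 5325 in DMSO libraries. Each DMSO library lay above every inhibitor library, and the inhibitors overlapped. Lmo2 was 13.9% lower with UNC1999 and 11.4% lower with JQEZ5 than with DMSO (limma, log2 -0.21 ± 0.03 and -0.17 ± 0.03, adjusted p 2.78e-05 and 0.000544), and the difference between the inhibitors, -0.04 ± 0.03 with a 95% interval of -0.10 to 0.02, was not called (adjusted p 0.330). Msi2 averaged 372 ± 19.7 normalised counts with UNC1999, 318 ± 26.4 with JQEZ5 and 353 ± 21.6 with DMSO (SD, n = 3 each). Msi2 was not called for either inhibitor against DMSO, with 95% intervals of -0.06 to 0.16 and -0.21 to 0.01 on the log2 scale (adjusted p 0.483 and 0.207).

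At the same labelled dose and time UNC1999 and JQEZ5 differed in 5 of 6 members, where 36.4% of tested genes were called, 18.7% higher and 17.7% lower. The libraries of 5 members did not overlap, against 45.2% of tested genes. Bcat1, Sox4, Myb and Myc were lower with UNC1999 than with JQEZ5, and Msi2 was higher, at 1.17 times (limma, log2 0.15 ± 0.05, adjusted p 0.0409). Myc stood at 0.850 times (limma, log2 -0.22 ± 0.03, adjusted p 0.000168). The Msi2 call was lost with no filter (0.0512), with only those 2 groups in the fit (0.0635), with the replicate number as a block (0.0523) and without several single libraries (up to 0.173). An exact permutation test of 3 against 3 libraries cannot go below p = 0.1.

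**Figure D3:**
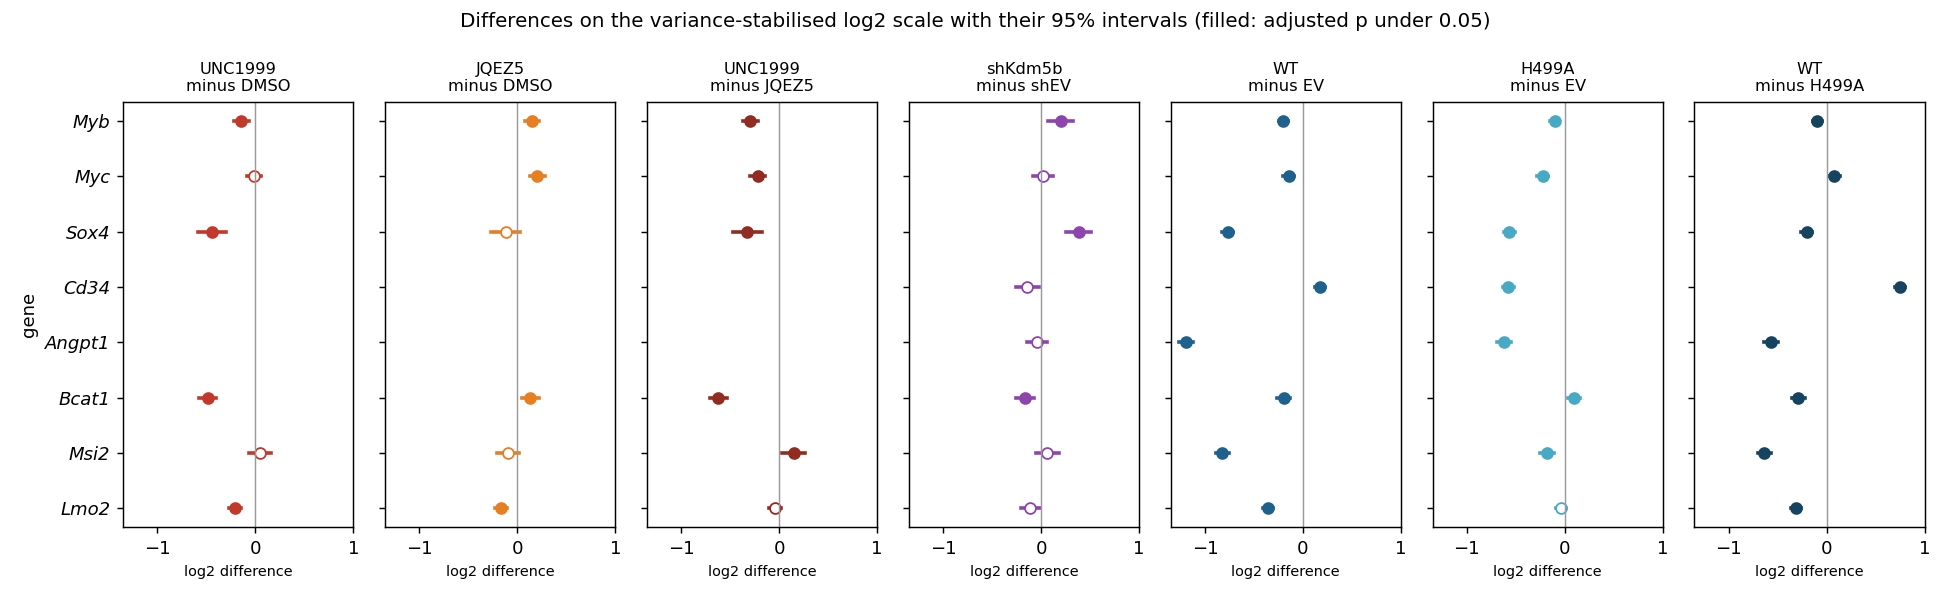
Log2 differences of each member on the variance-stabilised scale with their 95% intervals in the 7 comparisons (limma). Wild-type Kdm5b against EV has the lowest value, Angpt1 at -1.19, and Myb and Bcat1 lie on opposite sides of 0 for UNC1999 and JQEZ5.

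Knockdown of Kdm5b in NUP98-NSD1 cells asked the reverse question of the overexpression, in another line and from a low level of Kdm5b RNA. Sox4 and Myb were higher in shKdm5b than in shEV cells and Bcat1 was lower. Myc and Msi2 were not called, and neither was Lmo2, although its libraries did not overlap. Of the 8 members 6 passed the filter on low values, and 3 of these were called, 2 higher and 1 lower, where 32.5% of 10810 tested genes were called (15.0% higher, 17.4% lower). Over all 8 listed members 5 had no overlap between shKdm5b and shEV libraries, where 49.0% of tested genes had none. Beside these, 2 of 6 listed markers of mast cells, basophils and eosinophils were analysed, with a summed level of 2499 to 2840 normalised counts in shKdm5b and 85.1 to 102 in shEV libraries, and their part in the result was not tested.

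Sox4 had 576, 535 and 479 normalised counts in shKdm5b libraries, against 366, 342 and 322 in shEV libraries. Every shKdm5b library lay above every shEV library. Sox4 rose to 1.54 times shEV (limma, log2 0.39 ± 0.06, adjusted p 0.00120), and without shKdm5b replicate 1 the log2 difference was 0.34 (adjusted p 0.000609). A voom fit of the recovered counts put it at 0.63. Myb had 10906, 12049 and 12355 normalised counts in shKdm5b libraries, against 10011, 10634 and 9901 in shEV libraries. Here too the groups did not overlap, and Myb was 15.6% higher in shKdm5b (limma, log2 0.20 ± 0.06, adjusted p 0.0243). The call was lost without shEV replicate 1 or 3 or shKdm5b replicate 2 or 3 (adjusted p 0.0685 to 0.106), and stood at log2 0.25 with an adjusted p of 0.000522 without shKdm5b replicate 1.

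Bcat1 had 4663, 4678 and 4947 normalised counts in shKdm5b libraries, against 5477, 5374 and 5284 in shEV libraries. It was 11.4% lower without overlap (limma, log2 -0.16 ± 0.04, adjusted p 0.0162), a call lost without any one shEV library (adjusted p 0.0570 to 0.0951). Lmo2 had 11125, 10449 and 10554 normalised counts in shKdm5b libraries, against 11524, 11671 and 11534 in shEV libraries. Its log2 difference of -0.11 ± 0.04, with a 95% interval of -0.20 to -0.01, missed the threshold (limma, adjusted p 0.0763). Leaving out shKdm5b replicate 1, which had the highest Lmo2 value of its group, gave log2 -0.14 with an adjusted p of 0.00321.

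Myc averaged 8348 ± 344 normalised counts in shKdm5b and 8237 ± 127 in shEV cells, and Msi2 459 ± 33.2 in shKdm5b and 427 ± 28.2 in shEV cells (SD, n = 3 each). Their ranges overlapped, with 95% intervals of -0.08 to 0.12 and -0.05 to 0.18 on the log2 scale (limma, adjusted p 0.785 and 0.364). Cd34 and Angpt1 were below the filter in this line. Cd34 had 21.1, 17.5 and 9.56 normalised counts in shKdm5b libraries, against 28.7, 29.6 and 24.5 in shEV libraries, from 21, 17 and 7 and from 33, 35 and 26 reads. All 3 shKdm5b libraries lay below all shEV libraries, and a fit of all genes did not call the difference (limma, log2 -0.14 ± 0.05, adjusted p 0.0875). Angpt1, at 38.1, 45.2 and 42.3 normalised counts in shKdm5b and 52.1, 49.9 and 40.6 in shEV libraries, overlapped between the groups (limma, log2 -0.04 ± 0.05, adjusted p 0.534).

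Across the 8 groups the members differed in how far their levels spread. Levels are given here as RPM, the reads of a gene scaled to the total of its library (mean ± SD, n = 3 in NUP98-NSD1 and n = 2 in MLL-AF9 groups). The 3 tables were normalised separately, from different experiments and with the kit of each library not stated, so no test was made across them. Sox4 stood at 8.10 ± 1.55 in UNC1999, 12.9 ± 1.28 in JQEZ5 and 15.2 ± 1.14 in DMSO cells, 18.1 ± 1.49 in shKdm5b and 11.6 ± 0.756 in shEV cells, and 109 ± 1.39 in WT, 128 ± 1.62 in H499A and 202 ± 1.376 in EV cells RPM. From high to low the order was EV, H499A, WT, shKdm5b, DMSO, JQEZ5, shEV and UNC1999, in which only the ranges of JQEZ5 and shEV overlapped as neighbours. The MLL-AF9 groups therefore lay above all NUP98-NSD1 groups.

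Cd34 had the widest spread of levels. It stood at 0.546 ± 0.196 in shKdm5b and 0.935 ± 0.0923 in shEV cells, and 386 ± 4.30 in WT, 215 ± 7.32 in H499A and 332 ± 8.41 in EV cells RPM. All neighbours in the order WT, EV, H499A, shEV and shKdm5b were apart. Angpt1 stood at 1.43 ± 0.135 in shKdm5b and 1.61 ± 0.208 in shEV cells, and 40.7 ± 1.67 in WT, 72.1 ± 0.974 in H499A and 125 ± 8.21 in EV cells RPM. Its order was EV, H499A, WT, shEV and shKdm5b, and the last pair overlapped. For Bcat1 the levels were 30.6 ± 1.25 in UNC1999, 55.1 ± 0.926 in JQEZ5 and 50.0 ± 1.71 in DMSO cells, 163 ± 6.77 in shKdm5b and 182 ± 3.32 in shEV cells, and 61.1 ± 1.66 in WT, 79.7 ± 0.680 in H499A and 72.5 ± 0.171 in EV cells RPM. Here the order ran shEV, shKdm5b, H499A, EV, WT, JQEZ5, DMSO and UNC1999, with no overlap between neighbours, so that the controls shEV and DMSO, both NUP98-NSD1 cells, stood at opposite ends of the MLL-AF9 groups.

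Msi2 levels were 23.5 ± 1.23 in UNC1999, 20.5 ± 1.67 in JQEZ5 and 23.3 ± 1.50 in DMSO cells, 15.7 ± 1.28 in shKdm5b and 14.5 ± 0.971 in shEV cells, and 50.3 ± 3.67 in WT, 91.9 ± 1.66 in H499A and 107 ± 0.411 in EV cells RPM. They were highest in EV, followed by H499A, WT, UNC1999, DMSO, JQEZ5, shKdm5b and shEV, where UNC1999 overlapped DMSO and shKdm5b overlapped shEV. Myb, Myc and Lmo2 spread less. Myb stood at 188 ± 6.11 in UNC1999, 239 ± 4.90 in JQEZ5 and 219 ± 9.92 in DMSO cells, 402 ± 30.1 in shKdm5b and 345 ± 13.9 in shEV cells, and 405 ± 4.45 in WT, 430.0 ± 3.45 in H499A and 461 ± 2.48 in EV cells RPM. From EV it ran down through H499A, WT, shKdm5b, shEV, JQEZ5 and DMSO to UNC1999, and only WT and shKdm5b overlapped. Myc stood at 185 ± 5.01 in UNC1999, 222 ± 5.51 in JQEZ5 and 195 ± 7.25 in DMSO cells, 285 ± 10.6 in shKdm5b and 279 ± 4.72 in shEV cells, and 179.6 ± 4.67 in WT, 167 ± 2.71 in H499A and 198 ± 3.59 in EV cells RPM. Its order was shKdm5b, shEV, JQEZ5, EV, DMSO, UNC1999, WT and H499A, with overlaps between shKdm5b and shEV, EV and DMSO, and UNC1999 and WT. Lmo2 stood at 286 ± 5.14 in UNC1999, 301 ± 8.41 in JQEZ5 and 347 ± 2.83 in DMSO cells, 366 ± 8.88 in shKdm5b and 392.3 ± 3.36 in shEV cells, and 347 ± 10.0 in WT, 434 ± 3.73 in H499A and 443 ± 5.61 in EV cells RPM. It was highest in EV, then H499A, shEV, shKdm5b, WT, DMSO, JQEZ5 and UNC1999, and only WT and DMSO overlapped.

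Levels per kilobase (RPKM) allow a rough comparison between genes, here over the merged exons of all protein-coding transcripts of a gene. Lmo2 had the highest level of the members in all 8 groups, at 166 ± 4.79 RPKM in WT, 211 ± 2.68 in EV, 187 ± 1.60 in shEV and 165 ± 1.35 in DMSO cells. Cd34 was second in WT, at 148 ± 1.65, and in EV, at 127 ± 3.22, and last in shKdm5b, at 0.209 ± 0.0752. Bcat1 was last in all 3 MLL-AF9 groups, at 6.83 ± 0.185 in WT and 8.10 ± 0.0191 in EV, and came after Lmo2, Myb and Myc in shKdm5b and shEV cells, at 18.2 ± 0.756 and 20.4 ± 0.371. In WT it lay only just below Msi2, at 6.96 and 6.70 against 7.74 and 6.98, an order that depends on the gene lengths used.

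The genes most like Myb, Myc and Sox4 were looked for over the 5 comparisons with a control, among 8414 genes tested in all 3 tables, by the mean absolute difference of the log2 values. UNC1999 and JQEZ5 share DMSO there and WT and H499A share EV. Yars, a transfer RNA synthetase, Snrpe, a core spliceosome protein, and Mdm1 were nearest to Myb, at 0.0252, 0.0304 and 0.0331 log2 units. Hibadh, an enzyme of valine breakdown, Rras2, a RAS-family GTPase, and Magohb, of the exon junction complex, were nearest to Myc, at 0.0295, 0.0341 and 0.0385. Sox4 had no gene as near, with Hmgb3, a high mobility group protein, and Idi1, of isoprenoid synthesis, at 0.102 and 0.104. Hmgb3 stood at log2 -0.32 with UNC1999, 0.05 with JQEZ5, 0.40 with shKdm5b, -0.79 in WT and -0.39 in H499A, each against its control.

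**Figure D4:**
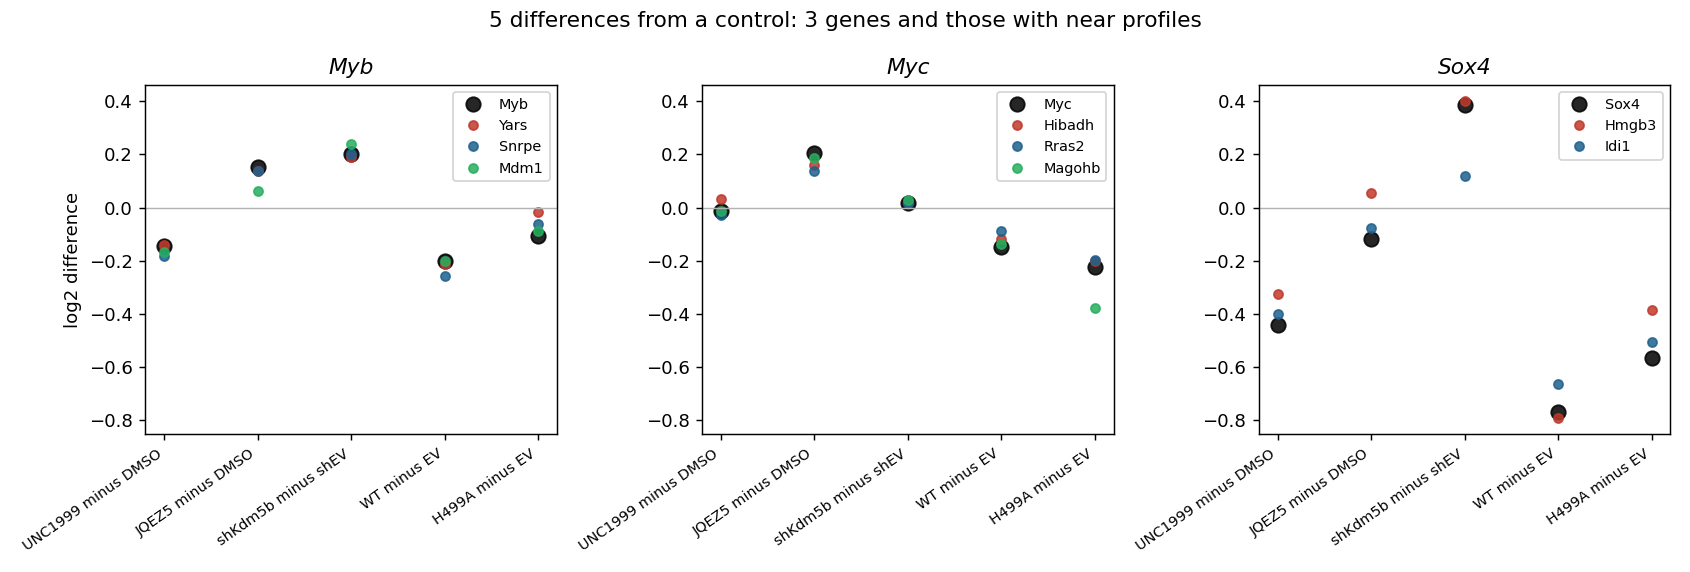
Log2 differences on the variance-stabilised scale in the 5 comparisons with a control for Myb, Myc and Sox4 (large black points) and of genes near to each (small points). Myb and Myc lie within 0.0385 log2 units of their neighbours on average over the 5 comparisons, and Sox4 within 0.104.

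Partners and known relatives of the members moved in both directions, and the counts below stand beside shares called among all tested genes of 47.9% for UNC1999, 23.6% for JQEZ5, 32.5% for shKdm5b, 62.2% for WT and 49.6% for H499A, each against its control. Of 13 tested genes of the MYC and MAX network, 6 were higher and 3 lower with UNC1999, 3 higher and 1 lower with JQEZ5, and 2 higher and 1 lower with shKdm5b. Mxd1, which pairs with MAX in place of MYC and represses, had 4267 ± 93.9 normalised counts with UNC1999, 4528 ± 115 with JQEZ5 and 6906 ± 101 with DMSO (SD, n = 3 each). It fell in both groups, with ratios to DMSO of 0.618 for UNC1999 and 0.656 for JQEZ5 (limma, adjusted p 4e-11 and 6.63e-10). In shKdm5b cells Mxd1 was 1.50 times shEV (adjusted p 2.89e-05). In WT against EV 4 of 13 were higher and 4 lower, and in H499A against EV 1 higher and 4 lower. The shares called were 69.2% with UNC1999, 30.8% with JQEZ5, 23.1% with shKdm5b, 61.5% in WT and 38.5% in H499A, so that the WT share was close to that of all genes. Fbxw7, the ubiquitin ligase subunit that marks MYC for destruction, had 256 ± 4.19 normalised counts in WT and 430.0 ± 6.97 in EV cells (SD, n = 2 each; 0.596 times, limma adjusted p 1.14e-08), and Mxd4, another MAX partner, rose to 1.41 times (adjusted p 1.7e-10).

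Among 14 relatives, coactivators and known targets of MYB, 2 were higher and 5 lower with UNC1999, 2 higher and 2 lower with JQEZ5, and 3 higher and 2 lower with shKdm5b. The granule gene Mpo fell to 0.669 times DMSO with UNC1999 (limma, adjusted p 1.95e-10), the cell-cycle factor Mybl2 to 0.690 times (1.08e-07) and the kinase Cdk6 to 0.798 times (1.04e-06). The neutrophil elastase gene Elane rose to 1.93 times shEV in shKdm5b cells (0.000219). In MLL-AF9 cells 13 were tested, and 5 were higher and 6 lower in WT and 5 higher and 6 lower in H499A, each against EV. The shares called, 50.0% with UNC1999, 28.6% with JQEZ5 and 35.7% with shKdm5b, were close to those of all genes, and stood at 84.6% in both WT and H499A. The myeloid factor Cebpa had 952 ± 33.9 normalised counts in H499A and 2381 ± 7.49 in EV cells (SD, n = 2 each; 0.400 times, limma adjusted p 6.53e-20), whereas its relative Cebpb rose to 1.80 times EV in WT and 2.45 times in H499A. WT against H499A gave 7 higher and 3 lower, or 76.9% of the list, where 54.4% of tested genes were called (28.2% higher, 26.3% lower). Cebpa stood at 2.19 times and the survival gene Bcl2 at 2.02 times.

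Of the partners of LMO2, 4 of 11 tested were lower with UNC1999, 1 was higher and 3 lower with JQEZ5, and of 12 tested 1 was higher and 2 lower with shKdm5b. Erg, an ETS factor of blood stem cells, fell to 0.633 times DMSO with UNC1999 and to 0.763 times shEV with shKdm5b (limma, adjusted p 7.83e-05 and 0.00167), and Lyl1, the helix-loop-helix partner of LMO2, to 0.862 times with UNC1999 (0.000632). In MLL-AF9 cells 3 of 13 were higher and 8 lower in WT, and 1 higher and 6 lower in H499A, each against EV. The shares called were 36.4% with each inhibitor, 25% with shKdm5b, 84.6% in WT and 53.8% in H499A, the last close to that of all genes. Gata2 fell to 0.647 times EV in WT and 0.656 times in H499A (limma, adjusted p 8.01e-12 and 2.51e-11), and Runx1, the core binding factor, to 0.720 times in H499A (3.32e-11). The SOX family list had 1 tested gene in all, Sox13 in the knockdown table, at 106 ± 13.7 normalised counts in shKdm5b and 139 ± 9.51 in shEV cells (limma, adjusted p 0.0485).

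RNA-binding regulators related to Msi2 gave 3 higher and 1 lower of 10 tested with UNC1999, 2 higher and 1 lower with JQEZ5, and 2 higher and 3 lower of 11 with shKdm5b. Igf2bp2, which stabilises messenger RNA, had 388 ± 27.1 normalised counts with UNC1999, 278 ± 10.9 with JQEZ5 and 148 ± 15.1 with DMSO (SD, n = 3 each), and so rose to 2.62 and 1.88 times (limma, adjusted p 6.9e-09 and 5.2e-06). In shKdm5b cells it fell to 0.688 times shEV (0.00957). Of 9 tested in MLL-AF9 cells 1 was higher and 4 lower in WT, and 3 higher and 1 lower in H499A, each against EV. The shares called were 40.0% with UNC1999, 30.0% with JQEZ5, 45.5% with shKdm5b, 55.6% in WT and 44.4% in H499A, where those of all genes were 47.9%, 23.6%, 32.5%, 62.2% and 49.6%. Syncrip, a partner of MSI2, fell to 0.803 times EV in WT (6.38e-10).

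Genes of branched-chain amino acid handling, around Bcat1, gave 2 higher and 5 lower of 16 tested with UNC1999, 2 higher and 1 lower with JQEZ5, and 3 higher and 3 lower with shKdm5b. The leucine transporter gene Slc7a5 fell to 0.761 times DMSO with UNC1999 while its heavy chain Slc3a2 rose to 1.35 times (limma, adjusted p 2.72e-06 and 5.29e-07), and with JQEZ5 Slc3a2 rose to 1.26 times (2.97e-05). In MLL-AF9 cells 3 of 16 were higher and 7 lower in WT and 1 higher and 4 lower in H499A, each against EV. The shares called were 43.8% with UNC1999, 18.8% with JQEZ5, 37.5% with shKdm5b and 62.5% in WT, all close to those of all genes, and 31.2% in H499A. Slc7a5 fell to 0.819 times EV in WT and 0.814 times in H499A (1.35e-08 and 1.13e-08), and Bckdha, of the branched-chain ketoacid dehydrogenase, rose to 1.33 times in WT (7.46e-09). The transporter gene Slc43a1 had 26.9 ± 5.29 normalised counts in H499A and 214 ± 17.2 in EV cells (SD, n = 2 each; limma, adjusted p 1.62e-13).

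Stem cell surface genes related to Cd34 were few among those tested, 4 in the inhibitor table, 3 in the knockdown and 4 in the overexpression. Of these 2 were higher with UNC1999, 3 with JQEZ5 and 2 with shKdm5b. Cd93, an early progenitor surface receptor, rose to 1.50 times DMSO with UNC1999, 1.36 times with JQEZ5 and 1.29 times shEV with shKdm5b (limma, adjusted p 4.89e-09, 4.28e-07 and 0.0243). In WT and in H499A against EV 1 was higher and 3 lower. The 3 or 4 genes tested were too few to give as shares. Flt3, a cytokine receptor of progenitors, had 479.6 ± 15.4 normalised counts in WT, 727 ± 20.4 in H499A and 1393 ± 50.1 in EV cells (SD, n = 2 each; limma, adjusted p 1.51e-18 and 2.67e-14 against EV). Cd93 rose to 1.97 times EV in WT (1.79e-21). No gene of the angiopoietin and TIE receptor list other than Angpt1 itself was tested in any comparison.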

How the data were processed

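RNA-seq values for 21 libraries came as 3 tables of log2 expression. Per the submitters' processing notes, reads were processed with STAR 2.4.2 and Salmon 0.1.19 and values with DESeq2 1.38.2, on mm10 (GRCm38.p4). The deposited log2 values behave as variance-stabilised values in all 3 tables; for the knockdown table this was read from the values, since its name says only that expression is normalised. Libraries were made from 1 µg of total RNA with either of 2 kits, and the labels do not assign kits to libraries.

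The transformation was undone in closed form from the lowest value of each table (6.88, 7.44 and 8.18 for inhibitor, knockdown and overexpression), which returned whole reads for 100% of values at a tolerance of 0.05, and with them the depth of each library. Tests used the deposited values: a linear model with a mean for every group was fitted with limma 3.58.1 (R 4.3.3), its variances moderated by eBayes with a trend, p-values were adjusted by Benjamini-Hochberg over all tested genes, and calls were made under 0.05. A gene was tested if it exceeded the table's lowest value by 1 log2 unit (59.0, 86.6 and 145 normalised counts) in a number of libraries equal to the smallest group. This kept 10694, 10810 and 9458 of 14178, 15623 and 13949 genes. Members below it took their values from a fit of all genes. The procedure was tested on simulated data. Reads per kilobase used the merged length of all exons of the protein-coding transcripts of each gene in GENCODE M21.

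The members, gene lists, comparisons and tests were chosen with earlier results of these data known. Genes named beside the members are up to 3 called genes of each list with the lowest adjusted p, and the 3 genes nearest to Myb, Myc and Sox4; some that this rule names are not reported here. Alternatives changed the filter (none, or 2 log2 units), the scaling (median centring or quantiles), the eBayes settings (no trend, or robust), the groups in the fit (only those compared), the model (replicate number as a block, or voom on recovered counts) and the libraries (each left out in turn).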

Additional observations from a re-analysis of the deposited data

Results flagged for a closer look

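Myb and Bcat1 in NUP98-NSD1 cells were each called lower with UNC1999 and higher with JQEZ5 against the same DMSO libraries. The JQEZ5 call of Bcat1 was lost without any one JQEZ5 library, or without DMSO replicate 1 or 3. The direct test of UNC1999 against JQEZ5 passed for both genes. Calls of opposite sign against shared libraries all but set that outcome, so it adds no separate support. The log2 difference between the inhibitors was -0.29 for Myb (limma, adjusted p 1.14e-05) and -0.62 for Bcat1 (limma, adjusted p 2.55e-08). All 3 UNC1999 libraries lay below all 3 JQEZ5 libraries for both genes, where 45.2% of tested genes had no overlap in either direction.

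Cd34 and Bcat1 in MLL-AF9 cells were called in opposite directions with wild-type and mutant Kdm5b against the same EV libraries. Wild type against H499A gave a log2 difference of 0.75 for Cd34 (limma, adjusted p 1.71e-18) and -0.29 for Bcat1 (limma, adjusted p 1.52e-08), an outcome all but set by the opposite calls. The 2 libraries of each group did not overlap for either gene, which held for 75.8% of tested genes. Kdm5b RNA stood at 1413 ± 4.48 normalised counts in WT and 294 ± 21.5 in H499A cells (SD, n = 2 each), so the amount of Kdm5b RNA and the mutation cannot be told apart in these differences.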

How the results depend on the processing

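Over 50 values of members and 765 alternatives, direction and side of the threshold held in 732, 28 lost a call, 2 gained one and 3 changed direction. The 3 were uncalled differences of Myc: 0.013 without DMSO replicate 2 and 0.010 without UNC1999 replicate 3 for UNC1999 against DMSO (-0.034 to 0.013 over all left-out libraries), and -0.0043 without shKdm5b replicate 1 for shKdm5b against shEV (-0.0043 to 0.050 over all left-out libraries). The cause was not tested. Members called in the knockdown numbered 3, and 1 to 4 when single libraries were left out, with 1 without shEV replicate 1 and 1 without shEV replicate 3. Leaving out single libraries gave 3 to 4 for JQEZ5, 4 to 5 for UNC1999 against JQEZ5, 6 to 7 for H499A and 7 to 8 for WT against H499A, and changed no count for UNC1999 or WT against their controls. The 2 gains were Lmo2, for UNC1999 against JQEZ5 under quantile normalisation (adjusted p 0.0435) and for shKdm5b without replicate 1 (0.00321).

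Same-numbered libraries deviated together at correlations of -0.13 to 0.24. The highest were 0.24 for replicate 1 of shEV and shKdm5b and 0.21 for replicate 1 of JQEZ5 and UNC1999. Such correlations cannot decide whether the replicate numbers pair samples, and the labels do not say. With the replicate number as a block, members called were 4 for UNC1999, 4 for JQEZ5, 4 for UNC1999 against JQEZ5, 3 for shKdm5b, 8 for WT, 7 for H499A and 8 for WT against H499A, and the block ended only the Msi2 call between the inhibitors. Low counts limit Sox4 in the inhibitor experiment, which a filter at 2 log2 units removed, and Cd34 and Angpt1 in the knockdown. A voom fit put Sox4 in UNC1999 against JQEZ5 at -0.66, against -0.32 on the compressed scale.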

Other observations

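Within the lists around Msi2 and the other self-renewal regulators, 8 of 21 tested genes were called higher in H499A cells than in both EV and WT cells. Only some of these are described here, and the grouping was made after their values were seen. Of all 9458 tested genes, 22.7% were called higher in H499A than in EV and 26.3% lower in WT than in H499A. The share of all genes called in both was not computed, so whether 8 of 21 stands out was not tested. The order with H499A highest is within MLL-AF9 cells, since Lin28b had 808 to 828 and Igf2bp3 8308 to 8441 normalised counts in the NUP98-NSD1 shEV libraries, from a table normalised separately. In the DMSO libraries, the other NUP98-NSD1 control, Lin28b had only 18.0 to 26.6 and Igf2bp3 2329 to 2355, again from a separate table. Hoxa9, another of the 8, averaged 4740.0 ± 107 in H499A, 2963 ± 14.7 in WT and 3771 ± 27.5 in EV cells (SD, n = 2 each). Lin28b, which blocks maturation of let-7 microRNAs in fetal and cancer cells, had 255 and 259 normalised counts in H499A libraries, against 0 and 5.39 in EV libraries, and 1.05 and 1.97 in WT libraries. Hmga2, a chromatin protein and let-7 target, had 584 and 622 in H499A and 274 and 252 in EV libraries (2.29 times, limma adjusted p 4.74e-12), and 66.2 and 87.5 in WT libraries (0.292 times EV, adjusted p 4.07e-12). Igf2bp3, a fetal RNA-binding protein gene, had 2596 and 2617 in H499A and 1813 and 1767 in EV libraries (1.46 times, limma adjusted p 9.26e-13). Pbx3, a homeobox cofactor of HOXA9, had 878 and 919.6 in H499A and 144 and 140.3 in EV libraries (6.33 times, limma adjusted p 5.84e-20), and 199.6 and 206 in WT libraries. Lin28b, Hmga2, Igf2bp3 and Pbx3 were each lower in WT than in H499A by the direct test (limma, adjusted p 1.33e-16, 2.8e-18, 2.49e-16 and 1.74e-18). A call in that direct test was part of the rule that formed the grouping, so these values add no support to it.

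Bmi1, a Polycomb gene of stem cells, rose with both inhibitors in NUP98-NSD1 cells. It had 795, 773 and 747 normalised counts in UNC1999, 704, 790.2 and 704 in JQEZ5 and 432, 429.8 and 429.7 in DMSO libraries, 1.79 times DMSO with UNC1999 and 1.70 times with JQEZ5 (limma, adjusted p 1.34e-08 and 1.61e-07).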
